A study of Homo sapiens with 10 samples.

Results

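Glycosyltransferases of N- and O-glycans were compared between 2 fractions of SW480 cells, an established human colorectal cancer line. The genes were taken by symbol: every listed gene whose name is FUT, ST3GAL, ST6GAL, ST6GALNAC, ST8SIA, GALNT, B3GNT, B3GALT, B4GALT, B4GALNT, GCNT or MGAT followed by a number and at most 1 letter. This gave 86 of the 26485 genes listed in the count tables. The rule reads symbols alone, but it was chosen with earlier results of these data known. The ROBO1pos cells, which the labels also call SW480-CBC, and the ROBO1neg cells, labelled SW480-RSC, were separated by flow sorting with an antibody against ROBO1, a receptor for SLIT ligands. Both fractions are of 1 cell line labelled wild type, with no other treatment named, and each had 5 polyadenylated-RNA libraries. Nothing in the labels tells whether the 5 replicates were grown separately. The p-values below therefore reflect how much libraries vary, a spread that may be technical. In bulk RNA, fewer cells that express a gene and less of its RNA per cell cannot be told apart.

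Glycosyltransferases of the Golgi build glycans by adding 1 sugar at a time from nucleotide-sugar donors, and most sites can be used by several competing enzymes of a family. GALNT enzymes start mucin-type O-glycans on serine or threonine, MGAT enzymes branch N-glycans, GCNT enzymes branch O-glycans and poly-LacNAc chains, and B3GNT, B3GALT, B4GALT and B4GALNT enzymes extend the arms. Sialyltransferases and fucosyltransferases cap the chains, and changed branching, truncated O-glycans and changed caps are well known in colorectal cancer. Some enzymes of these families work on glycolipids or on the linker of proteoglycans instead.

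The promoters of 4 members are shown because these genes had among the largest differences, in either direction, or the highest levels in their classes. ST8SIA4 and GALNT9 were higher in ROBO1pos, and MGAT5 and B4GALT1 in ROBO1neg. They are RefSeq sequences of GRCh38.p14, the 250 bases before a RefSeq start of the gene, printed 5′ to 3′ on the gene's strand. For ST8SIA4, GALNT9 and MGAT5 this is the outer start of the gene. For B4GALT1 the start used lies inside the gene, which RefSeq places at 33104077 to 33185089 on the minus strand. The last 20 bases of the B4GALT1 stretch are left out because GENCODE v29 places them in an exon. ST8SIA4 lies on chromosome 5 (chr5:100903283-100903532, minus strand), GALNT9 on chromosome 12 (chr12:132329590-132329839, minus strand), MGAT5 on chromosome 2 (chr2:134119685-134119934, plus strand) and B4GALT1 on chromosome 9 (chr9:33167357-33167586, minus strand). Capitals mark the GC box GGGCGG, the TCF/LEF letters CTTTGA or the ETS letters CCGGAA, each on either strand.
ST8SIA4: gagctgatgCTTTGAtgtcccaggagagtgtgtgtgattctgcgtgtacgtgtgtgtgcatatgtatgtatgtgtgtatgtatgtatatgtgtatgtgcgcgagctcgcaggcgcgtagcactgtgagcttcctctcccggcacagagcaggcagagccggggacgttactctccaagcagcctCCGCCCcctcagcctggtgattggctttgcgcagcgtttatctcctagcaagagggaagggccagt
GALNT9: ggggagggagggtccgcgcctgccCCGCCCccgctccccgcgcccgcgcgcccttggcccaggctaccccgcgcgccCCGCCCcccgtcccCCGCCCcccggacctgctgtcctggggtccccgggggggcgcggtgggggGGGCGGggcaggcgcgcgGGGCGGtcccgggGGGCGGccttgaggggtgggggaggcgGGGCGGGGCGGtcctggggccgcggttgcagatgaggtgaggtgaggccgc
MGAT5: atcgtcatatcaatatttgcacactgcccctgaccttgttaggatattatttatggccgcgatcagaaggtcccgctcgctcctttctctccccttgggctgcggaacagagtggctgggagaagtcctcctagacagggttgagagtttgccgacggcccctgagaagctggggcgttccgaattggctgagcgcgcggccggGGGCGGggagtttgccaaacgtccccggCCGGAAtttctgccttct
B4GALT1: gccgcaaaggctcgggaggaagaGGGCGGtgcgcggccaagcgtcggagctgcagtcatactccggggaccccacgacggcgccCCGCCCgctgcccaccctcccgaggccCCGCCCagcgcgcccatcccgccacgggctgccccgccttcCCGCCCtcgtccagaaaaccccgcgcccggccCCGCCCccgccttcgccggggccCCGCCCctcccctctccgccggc
The GC content was 55.6% for ST8SIA4, 85.2% for GALNT9, 58.4% for MGAT5 and 80% for B4GALT1, beside a mean of 56.9% over all promoters of the table. Of the 86 members, 61 had an entry, and the 250 bases before the start were searched on both strands. The GC box stood in 10 of the 17 promoters of members higher in ROBO1pos and in 18 of the 23 of members higher in ROBO1neg, beside 42.3% of 27305 promoters. The AP-1 letters TGANTCA stood in 2 promoters of the ROBO1pos-high members and 1 of the ROBO1neg-high members (6.6% of all promoters). The TEAD letters GGAATG stood in 0 of the ROBO1pos-high and 4 of the ROBO1neg-high (11.9%), the TCF/LEF letters in 1 of the ROBO1pos-high and 0 of the ROBO1neg-high (11.4%), and the ETS letters in 0 of the ROBO1pos-high and 3 of the ROBO1neg-high (14.8%). These matches describe the letters only.

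The libraries held between 23228686 and 29539100 counts on genes. ROBO1 averaged 430 ± 26.7 CPM in ROBO1pos and 7.25 ± 1.47 CPM in ROBO1neg (SD, n = 5 each; log2 difference 5.88, SE 0.11, edgeR quasi-likelihood adjusted p = 2.6e-14), so the sorted gene followed the labels. CPM is a gene's count divided by the TMM-scaled library size, per 1e6 counts. Of 12 colon epithelial markers, 4 were under 1 CPM in both groups and KRT20 was at 0 in all libraries. Their summed level was 5782 to 7042 CPM in ROBO1pos and 7981 to 10495 CPM in ROBO1neg, carried by KRT8, KRT18 and KRT19. Of the 11 tested, 5 were called as higher in ROBO1pos, all at 2-fold or more, and 4 in ROBO1neg, none at 2-fold. The calls over all tested genes were 41.6% for ROBO1pos and 40.4% for ROBO1neg, or 13.5% and 16.8% at 2-fold. CDH17 and CDX1 passed the filter on low counts through ROBO1pos alone, so they had to differ to be tested. The 7 markers that passed it in each group gave 2 calls for ROBO1pos and 4 for ROBO1neg. Among those higher in ROBO1pos, EPCAM averaged 680 ± 22.9 CPM in ROBO1pos and 303 ± 12.8 CPM in ROBO1neg, and VIL1 503 ± 23.3 CPM in ROBO1pos and 27.7 ± 3.14 CPM in ROBO1neg. For 8 fibroblast markers the sum was 10.1 to 13.7 CPM in ROBO1pos and 14.0 to 22.5 CPM in ROBO1neg, with COL3A1 at 0 in both and DCN and FAP at 0 in ROBO1neg. COL1A1 carried the ROBO1neg sum, while LUM (470 counts in ROBO1pos and 4 in ROBO1neg) and COL1A2 (257 counts in ROBO1pos and 43 in ROBO1neg) stood the other way. For 10 immune markers it was 3.33 to 4.2 CPM in ROBO1pos and 3.35 to 5.30 CPM in ROBO1neg, with PTPRC and MS4A1 at 0 in ROBO1neg. For 6 endothelial markers it was 0.504 to 0.889 CPM in ROBO1pos and 2.43 to 4.36 CPM in ROBO1neg, with TEK and CLDN5 at 0 in ROBO1pos. VWF made up most of it (57 counts in ROBO1pos and 405 in ROBO1neg), while CDH5 (27 counts in ROBO1pos and 6 in ROBO1neg) and KDR (9 in ROBO1pos and 1 in ROBO1neg) stood the other way. The epithelial sums thus exceeded those of the other cell types by far in every library, and the part of those other cell types in the results was not tested.

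Of the 86 glycosyltransferases, 62 had enough counts to be tested, and 24 did not. At an adjusted p under 0.05 over all 14932 genes tested, 22 of the 62 (35.5%) were called as higher in ROBO1pos, 34 (54.8%) as higher in ROBO1neg, and 6 were not called. Over all genes the shares were 41.6% higher in ROBO1pos, 40.4% higher in ROBO1neg and 82% in either direction, so a call by itself was the usual outcome in these libraries. At a fold change of at least 2, 9 members were higher in ROBO1pos and 19 in ROBO1neg, beside 13.5% of all genes for ROBO1pos and 16.8% for ROBO1neg. The median log2 difference over the tested members was -0.42, beside 0.02 over all genes, and the median size was 0.79, beside 0.58. In 19 of the 22 members higher in ROBO1pos and 33 of the 34 higher in ROBO1neg there was no overlap between the groups. Over all 14932 tested genes, of which 12250 were called, 10729 (71.9%) were without overlap, called or not. These shares are not on the same base, since calling favours genes without overlap. Of the 62, 52 passed the filter on low counts in each group, while GCNT3, ST8SIA4 and ST8SIA5 passed through ROBO1pos alone and 7 members (GALNT4, GALNT5, GCNT4, B3GNT7, B3GALT5, ST3GAL6 and FUT2) through ROBO1neg alone. Those 10 had to differ to be tested, and of the 52 others 19 were higher in ROBO1pos and 27 in ROBO1neg. All 10 were among the members past 2-fold, which without them were 6 in ROBO1pos and 12 in ROBO1neg. The members past 2-fold also moved with the filter, to 16 in ROBO1pos with no filter beyond 1 count and 14 with DESeq2, and to 11 in ROBO1neg with at least 5 CPM in 5 libraries. Of the 24 members too low to test, 4 were without overlap, all higher in ROBO1pos. Over all 11553 genes too low to test, 4.45% were without overlap and higher in ROBO1pos, and 3.81% in ROBO1neg. With no filter beyond 1 count 18 of the 24 could be tested, and 7 were called, all higher in ROBO1pos. Of the 5984 genes that this setting added, 15.5% were called as higher in ROBO1pos and 12.3% in ROBO1neg. DESeq2 tested 13 of the 24 and called 5, all higher in ROBO1pos, beside 19.5% in ROBO1pos and 15.7% in ROBO1neg of the 3585 genes it added.

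Summed over all 86 genes, the members gave 2316 ± 29.9 CPM in ROBO1pos, against 3357 ± 70.1 CPM in ROBO1neg (SD, n = 5 each). MGAT5 alone made up most of that gap, since the sums without it were 1927 ± 31.9 CPM in ROBO1pos and 2237 ± 59.6 CPM in ROBO1neg. With or without MGAT5, no ROBO1pos library reached the lowest ROBO1neg library.

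**Figure D1:**
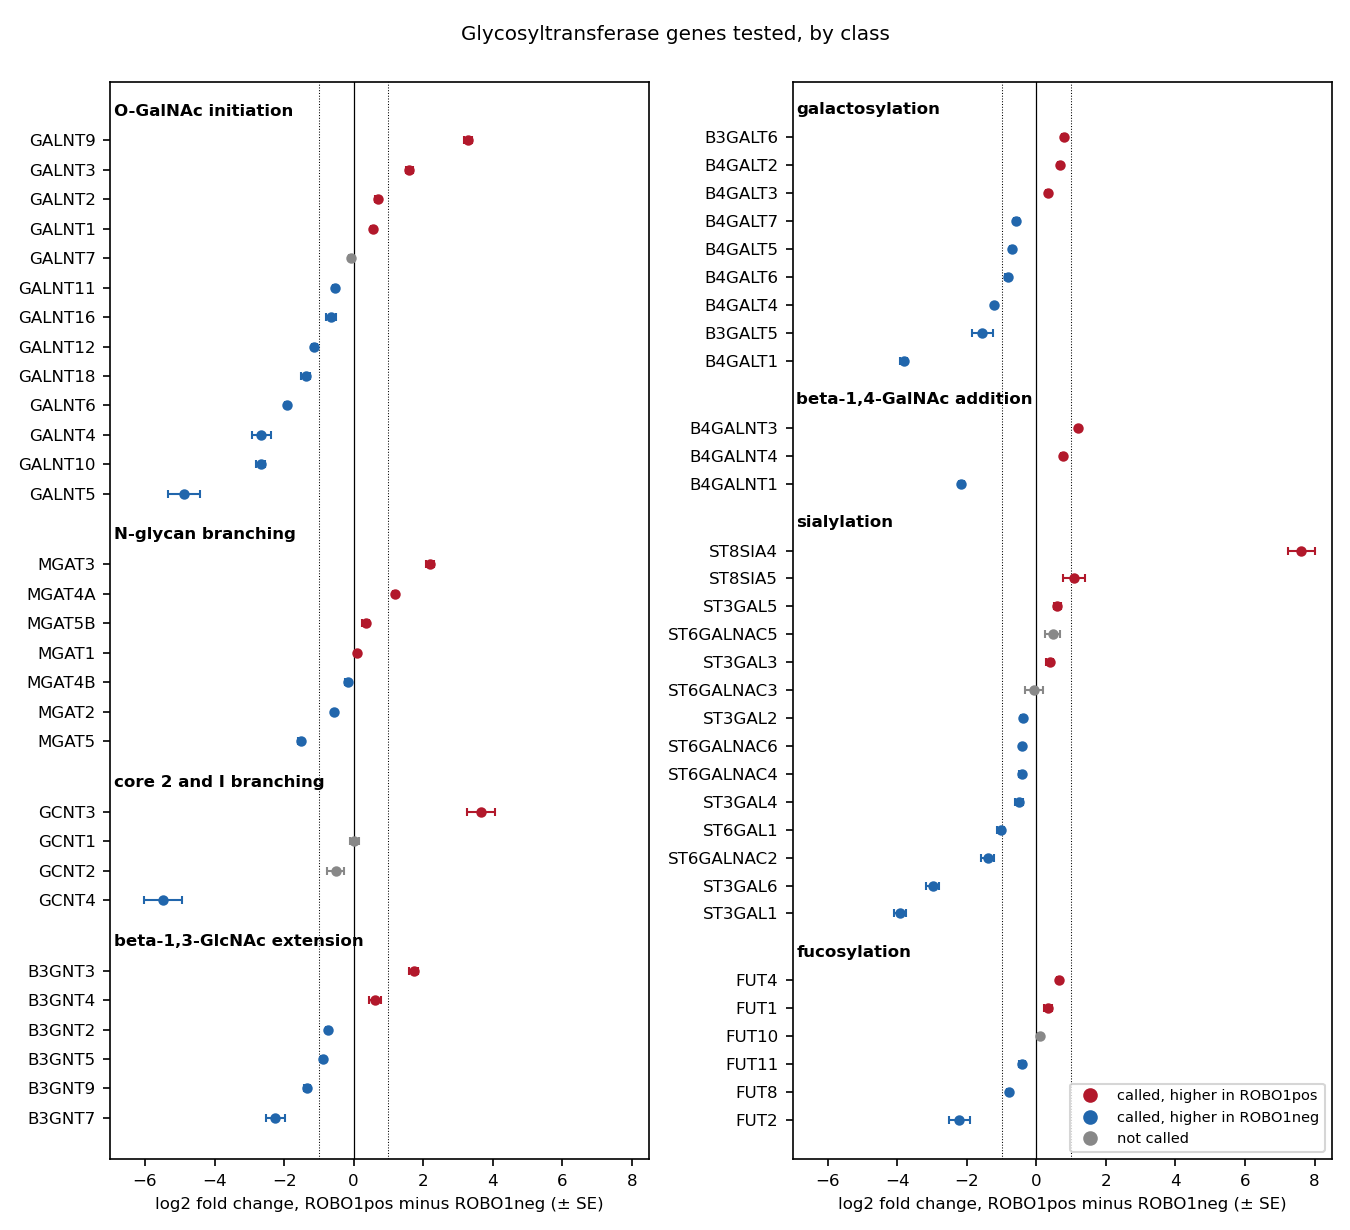
Log2 difference of ROBO1pos over ROBO1neg for the 62 tested glycosyltransferases, arranged by class, with 1 point a gene, its SE as a bar and dotted lines at a 2-fold difference. Most classes hold genes on both sides of 0, from 7.62 for ST8SIA4 to -5.48 for GCNT4.

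Genes of N-glycan branching differed in opposite directions. MGAT5, which adds the branch recognised by the lectin PHA-L, was lower in ROBO1pos, while MGAT3, which adds the bisecting GlcNAc that blocks further branching, and MGAT4A, which adds another branch, were higher. MGAT5 had 371, 375, 395, 375 and 431 CPM in the ROBO1pos libraries, against 1184, 1183, 1065, 975 and 1193 CPM in the ROBO1neg libraries. Every ROBO1pos library lay below every ROBO1neg library (log2 difference -1.53, SE 0.06, edgeR adjusted p = 3.3e-11). MGAT3, on chromosome 22 (39457012 to 39492194 in RefSeq, GRCh38.p14), had 48.6, 43.7, 56.2, 67.5 and 50.4 CPM in ROBO1pos, against 11.6, 9.43, 11.5, 11.4 and 14.0 CPM in ROBO1neg. The groups were far apart here too, in the other direction (2.20, SE 0.12, edgeR adjusted p = 5.9e-10). MGAT4A had 38.4, 43.8, 43.9, 42.5 and 40.3 CPM in ROBO1pos and 17.4, 17.6, 18.3, 20.5 and 17.4 CPM in ROBO1neg, again without overlap (1.19, SE 0.06, edgeR adjusted p = 3.2e-10).

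The other branching genes moved less. MGAT2, which turns hybrid into complex N-glycans, averaged 37.3 ± 1.79 CPM in ROBO1pos and 55.0 ± 2.65 CPM in ROBO1neg (SD, n = 5 each; edgeR adjusted p = 7.4e-08). MGAT1, which adds the GlcNAc that opens the hybrid and complex pathway, averaged 117 ± 2.49 CPM in ROBO1pos, against 109 ± 2.98 CPM in ROBO1neg (log2 difference 0.10, edgeR adjusted p = 0.015). It was no longer called without ROBO1neg replicate 5 (edgeR adjusted p = 0.052) or with no filter beyond 1 count (0.054). MGAT4B, the close relative of MGAT4A, averaged 237 ± 12.7 CPM in ROBO1pos and 267 ± 29.2 CPM in ROBO1neg with overlapping libraries (edgeR adjusted p = 0.032). Its call was lost without ROBO1pos replicate 2 (edgeR adjusted p = 0.065), ROBO1pos replicate 5 (0.057), ROBO1neg replicate 3 (0.085) or ROBO1neg replicate 4 (0.086), and under upper quartile scaling (0.15) and library size only (0.053). The calls of MGAT1 and MGAT4B thus rested on single libraries or settings. MGAT5B, known for branching O-mannose glycans of brain, averaged 7.45 ± 0.87 CPM in ROBO1pos and 5.86 ± 0.508 CPM in ROBO1neg (edgeR adjusted p = 0.0061). In all, 4 of the 7 tested members were higher in ROBO1pos and 3 in ROBO1neg, beside 41.6% and 40.4% of all tested genes. MGAT4D was at 0 in all 10 libraries, and MGAT4C had at most 2 counts in a library.

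Levels per kilobase of exon put these genes on 1 scale, with exon lengths from GENCODE v29, which may differ from the annotation the authors counted on. MGAT5 stood highest of its family in both groups, with 35.5% ± 1.88 of the family's summed level in ROBO1pos and 61.0% ± 3.61 in ROBO1neg (SD, n = 5 each). MGAT3 made up 7.63% ± 1.19 in ROBO1pos and 0.992% ± 0.139 in ROBO1neg. The ratio of MGAT3 to MGAT5 per kilobase ran from 0.184 to 0.283 in the ROBO1pos libraries (median 0.206) and from 0.0125 to 0.0185 in the ROBO1neg libraries (median 0.0169). The lowest ROBO1pos ratio thus lay well above the highest ROBO1neg ratio.

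**Figure D2:**
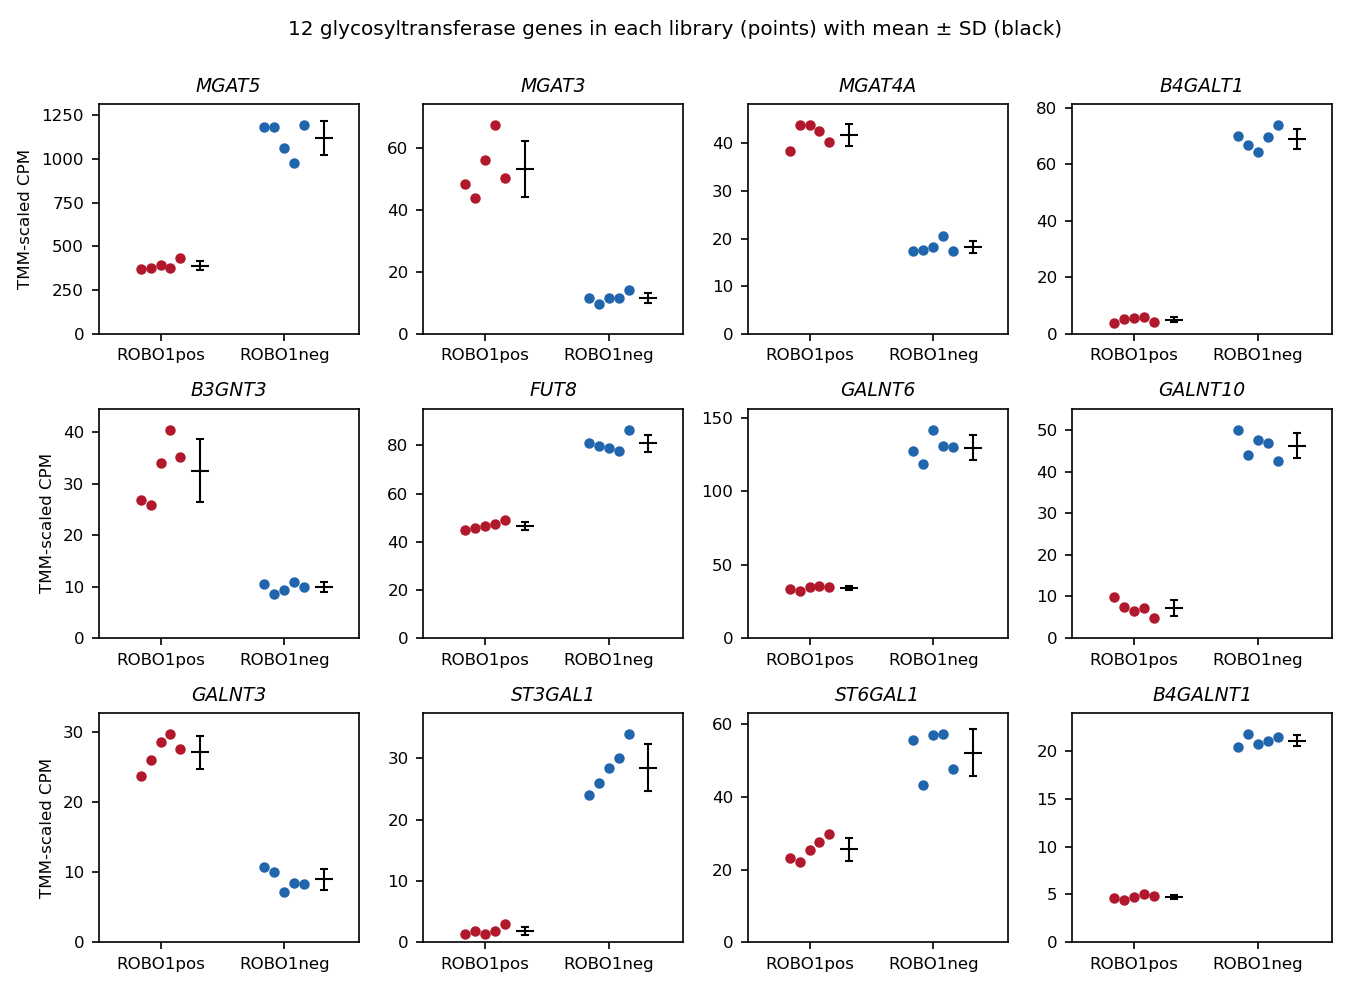
TMM-scaled CPM of 12 glycosyltransferases in each of the 10 libraries (points), ROBO1pos left and ROBO1neg right in each panel, with mean ± SD in black beside them. In all 12 panels the groups do not overlap, as for MGAT5 (371 to 431 CPM in ROBO1pos, 975 to 1193 CPM in ROBO1neg) and MGAT3 (43.7 to 67.5 CPM in ROBO1pos, 9.43 to 14.0 CPM in ROBO1neg).

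The genes that start mucin-type O-glycans were called in both directions. Among 13 tested GALNT genes, 4 stood higher in ROBO1pos, 8 in ROBO1neg and GALNT7 was not called, beside 41.6% and 40.4% of all tested genes higher in ROBO1pos and ROBO1neg. GALNT3, whose enzyme glycosylates FGF23 and many mucin-like proteins, had 23.6, 26.0, 28.5, 29.7 and 27.5 CPM in ROBO1pos, against 10.8, 10.1, 7.16, 8.43 and 8.37 CPM in ROBO1neg (log2 difference 1.6, SE 0.10, edgeR adjusted p = 3.1e-09). GALNT9, an isoform known mainly from brain, had 8.82, 7.86, 8.83, 8.32 and 8.46 CPM in ROBO1pos, against 0.680, 0.904, 0.998, 0.853 and 0.901 CPM in ROBO1neg (3.28, SE 0.12, edgeR adjusted p = 6.6e-12). Neither gene had overlapping groups, and both were high in ROBO1pos.

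GALNT6, an isoform often raised in epithelial tumours, went the other way. Lying on chromosome 12 (51351252 to 51391673), it had 33.5, 31.8, 34.8, 35.5 and 34.9 CPM in ROBO1pos, against 128, 118, 142, 131 and 130 CPM in ROBO1neg (log2 difference -1.93, SE 0.05, edgeR adjusted p = 5.0e-13). GALNT10, which prefers peptides that already carry GalNAc, had 9.94, 7.49, 6.62, 7.23 and 4.85 CPM in ROBO1pos, against 50.2, 44.0, 47.7, 47.1 and 42.7 CPM in ROBO1neg (-2.68, SE 0.13, edgeR adjusted p = 1.7e-10). All ROBO1neg libraries exceeded all ROBO1pos libraries for both genes. GALNT12, GALNT16 and GALNT18 were also higher in ROBO1neg, by 1.58 to 2.6 times. GALNT5 held 3 counts in all ROBO1pos libraries together and 106 in ROBO1neg, so that ROBO1neg exceeded ROBO1pos by a ratio of 35.6 (95% exact binomial interval 11.8 to 175, which covers counting error only, since reads without molecular identifiers are not independent molecules). GALNT4 averaged 0.142 ± 0.0682 CPM in ROBO1pos and 0.911 ± 0.105 CPM in ROBO1neg, but 93.2% of its exon length is shared with the readthrough gene POC1B-GALNT4, so its counts are uncertain. GALNT4 and GALNT5 passed the filter on low counts through ROBO1neg alone and had to differ to be tested, so their values are given as a description.

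The remaining tested GALNT genes differed by less than 2-fold. GALNT2 averaged 149 ± 17.8 CPM in ROBO1pos and 92.7 ± 5.01 CPM in ROBO1neg (edgeR adjusted p = 7.3e-07). GALNT1 averaged 61.6 ± 5.21 CPM in ROBO1pos and 42.1 ± 2.35 CPM in ROBO1neg (edgeR adjusted p = 8.8e-07). GALNT11, which acts on NOTCH1, averaged 34.8 ± 1.48 CPM in ROBO1pos and 50.4 ± 2.51 CPM in ROBO1neg. GALNT7, which extends partly glycosylated peptides, averaged 83.2 ± 4.29 CPM in ROBO1pos and 88.0 ± 3.26 CPM in ROBO1neg with overlapping libraries (log2 difference -0.08, SE 0.04, edgeR adjusted p = 0.10). Per kilobase, GALNT2 led the family in ROBO1pos with 28.5% ± 2.47 of the summed level against 14.8% ± 1.07 in ROBO1neg, whereas GALNT6 led in ROBO1neg, with 6.89% ± 0.504 in ROBO1pos and 21.7% ± 1.1 in ROBO1neg.

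**Figure D3:**
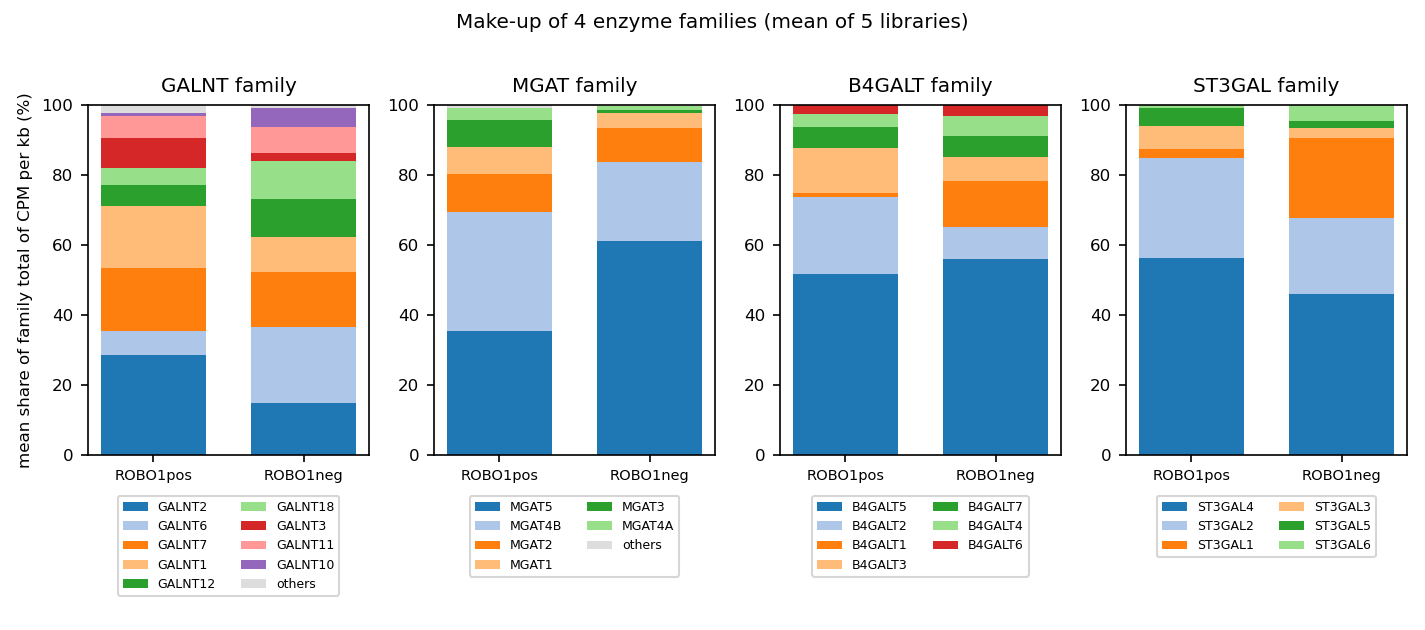
Share of the summed level per kilobase of exon held by each gene of the GALNT, MGAT, B4GALT and ST3GAL families, as the mean of 5 libraries, ROBO1pos left of ROBO1neg. In ROBO1pos, MGAT5 fills 35.5% of its family, GALNT6 6.89%, B4GALT1 1.36% and ST3GAL1 2.55%, against 61.0%, 21.7%, 13.0% and 22.7% in ROBO1neg.

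Of the GCNT genes, GCNT1, the leukocyte-type core 2 enzyme, made up 78.1% to 86.0% of the family's summed RNA level per kilobase in the libraries. It had 18.2, 13.7, 15.8, 16.8 and 10.8 CPM in ROBO1pos and 16.8, 16.1, 13.3, 12.9 and 15.1 CPM in ROBO1neg. The groups overlapped throughout (log2 difference 0.02, SE 0.13, edgeR adjusted p = 0.89). GCNT3, the mucin-type enzyme that makes core 2 and core 4, was low in both groups but higher in ROBO1pos, with 2.09, 1.48, 1.67, 1.94 and 0.616 CPM, against 0.127, 0.215, 0.0868, 0.102 and 0.0721 CPM in ROBO1neg (3.67, SE 0.39). GCNT3 passed the filter on low counts through ROBO1pos alone and GCNT4 through ROBO1neg alone. Both had to differ to be tested, so their values are given as a description. GCNT4 had 2 counts in all ROBO1pos libraries together, both in replicate 4, and 117 in ROBO1neg, a ratio of 58.9 in favour of ROBO1neg (95% exact binomial interval 15.9 to 492). Without that ROBO1pos library the ROBO1pos counts were 0, and GCNT4 was at least 31.7-fold lower in ROBO1pos, taking 3 counts over the group as the floor. GCNT2, which makes the I antigen, averaged 1.15 ± 0.342 CPM in ROBO1pos and 1.64 ± 0.468 CPM in ROBO1neg and was not called (log2 difference -0.51, SE 0.24, edgeR adjusted p = 0.062). It was called with the replicate block (edgeR adjusted p = 0.044) and without ROBO1pos replicate 2 or 4 or ROBO1neg replicate 1 or 3 (0.023 to 0.0497).

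Of the B3GNT genes, which begin LacNAc extension, 6 were tested, 2 higher in ROBO1pos and 4 in ROBO1neg, beside 41.6% and 40.4% of all tested genes. B3GNT3, which extends core 1 O-glycans, had 26.9, 25.8, 34.1, 40.5 and 35.2 CPM in ROBO1pos, against 10.5, 8.48, 9.29, 10.9 and 9.92 CPM in ROBO1neg. The groups were apart (log2 difference 1.72, SE 0.12, edgeR adjusted p = 9.6e-09). B3GNT2, the main poly-LacNAc enzyme, averaged 64.2 ± 5.68 CPM in ROBO1pos and 107 ± 3.30 CPM in ROBO1neg (-0.74, SE 0.06, edgeR adjusted p = 1.7e-08). Per kilobase, B3GNT3 held 33.7% ± 3.42 of the family's summed level in ROBO1pos and 8.2% ± 0.656 in ROBO1neg, and B3GNT2 held 54.1% ± 2.37 in ROBO1pos and 71.9% ± 0.428 in ROBO1neg. B3GNT5, the enzyme that starts lacto-series glycolipids, averaged 20.4 ± 0.346 CPM in ROBO1pos and 37.5 ± 1.67 CPM in ROBO1neg. B3GNT9 averaged 5.64 ± 0.496 CPM in ROBO1pos and 14.4 ± 1.33 CPM in ROBO1neg. Of the exon length, 16.2% overlaps MCF2L2 for B3GNT5 and 14.9% overlaps C16orf70 for B3GNT9. Both were without overlap between groups, and the remaining genes of the class were low. B3GNT4 averaged 1.57 ± 0.374 CPM in ROBO1pos and 1.02 ± 0.0913 CPM in ROBO1neg, with 20.7% of its exon length overlapping DIABLO. B3GNT7 averaged 0.388 ± 0.202 CPM in ROBO1pos and 1.85 ± 0.179 CPM in ROBO1neg, and it passed the filter on low counts through ROBO1neg alone. B3GNT6, the core 3 enzyme of normal colon, had no count in any library, which allows at most 0.102 to 0.130 CPM in a library at 3 counts.

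Of the tested galactosyltransferases, B4GALT1 differed most. B4GALT1, the enzyme best known for building LacNAc on N-glycan arms, had 3.71, 5.08, 5.58, 5.78 and 4.27 CPM in ROBO1pos, against 70.2, 66.8, 64.6, 69.6 and 74.0 CPM in ROBO1neg. The groups were 14.1-fold apart (log2 difference -3.82, SE 0.09, edgeR adjusted p = 2.5e-13). Per kilobase, B4GALT1 held 1.36% ± 0.221 of the B4GALT level in ROBO1pos and 13.0% ± 0.460 in ROBO1neg, placing it last of 7 in ROBO1pos and second in ROBO1neg. B4GALT5, which makes lactosylceramide, led the family in both groups, at 178 ± 7.07 CPM in ROBO1pos and 287 ± 30.0 CPM in ROBO1neg. B4GALT6, which also makes lactosylceramide, averaged 10.1 ± 1.21 CPM in ROBO1pos and 17.9 ± 0.775 CPM in ROBO1neg. B4GALT4 averaged 19.2 ± 0.546 CPM in ROBO1pos and 44.6 ± 1.5 CPM in ROBO1neg. All 3 were higher in ROBO1neg without overlap.

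B4GALT2 and B4GALT3, relatives of B4GALT1 that also act on N-glycan arms, were higher in ROBO1pos. B4GALT2 averaged 60.4 ± 1.93 CPM in ROBO1pos and 38.0 ± 1.51 CPM in ROBO1neg (log2 difference 0.67, SE 0.04, edgeR adjusted p = 2.2e-09). B4GALT3 averaged 35.9 ± 2.18 CPM in ROBO1pos and 28.6 ± 0.954 CPM in ROBO1neg, with 28.7% of its exon length overlapping PPOX. The proteoglycan linker enzymes went opposite ways. B3GALT6 averaged 69.8 ± 3.17 CPM in ROBO1pos and 40.3 ± 3.03 CPM in ROBO1neg. B4GALT7 averaged 22 ± 2.38 CPM in ROBO1pos and 32.8 ± 1.87 CPM in ROBO1neg. B3GALT5, which makes type 1 chains in colon, was low, with 0.194, 0.593, 0.775, 0.687 and 0.945 CPM in ROBO1pos, against 2.12, 0.991, 2.04, 1.81 and 2.38 CPM in ROBO1neg (-1.55, SE 0.31). It passed the filter on low counts through ROBO1neg alone and had to differ to be tested, so its values are given as a description. In all, 3 of the 9 tested galactosyltransferases were higher in ROBO1pos and 6 in ROBO1neg, beside 41.6% and 40.4% of all tested genes.

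Of the 3 tested B4GALNT genes, 2 stood higher in ROBO1pos and 1 in ROBO1neg, beside 41.6% and 40.4% of all tested genes. B4GALNT3 and B4GALNT4, which make LacdiNAc, were higher in ROBO1pos. B4GALNT3 had 79.9, 78.4, 74.3, 76.4 and 75.7 CPM in ROBO1pos, against 34.3, 30.7, 33.2, 34.9 and 34.3 CPM in ROBO1neg (log2 difference 1.20, SE 0.04, edgeR adjusted p = 8.1e-12). B4GALNT4 averaged 69.3 ± 3.58 CPM in ROBO1pos and 40.8 ± 1.03 CPM in ROBO1neg (0.76, SE 0.04, edgeR adjusted p = 8.2e-10). B4GALNT1, the GM2 and GD2 synthase of gangliosides, was lower in ROBO1pos, with 4.68, 4.45, 4.69, 5.01 and 4.81 CPM, against 20.4, 21.8, 20.8, 21.0 and 21.5 CPM in ROBO1neg (-2.16, SE 0.06, edgeR adjusted p = 1.2e-12). The groups did not overlap for any of the 3 genes. For B4GALNT1, 26.7% of the exon length overlaps SLC26A10. B4GALNT2, which makes the Sda antigen of normal colon, had at most 5 counts in a library.

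Sialyltransferases were called in both directions, 4 of 14 tested higher in ROBO1pos and 8 in ROBO1neg, beside 41.6% and 40.4% of all tested genes. ST3GAL1, which caps core 1 O-glycans and competes with core 2 branching, had 1.35, 1.78, 1.43, 1.86 and 3.00 CPM in ROBO1pos, against 24.0, 26.0, 28.3, 30.1 and 33.9 CPM in ROBO1neg. The highest ROBO1pos library was far below the lowest ROBO1neg library (log2 difference -3.92, SE 0.17, edgeR adjusted p = 4.7e-11). ST3GAL6, which caps LacNAc on the way to sialyl Lewis x, had 0.426, 0.519, 0.349, 0.768 and 0.575 CPM in ROBO1pos, against 3.53, 4.05, 4.86, 4.64 and 3.86 CPM in ROBO1neg (-2.98, SE 0.19). It passed the filter on low counts through ROBO1neg alone and had to differ to be tested, so its values are given as a description. ST3GAL4 averaged 20.8 ± 0.862 CPM in ROBO1pos and 29.3 ± 6.13 CPM in ROBO1neg. Its groups were close, with 21.9 CPM in the highest ROBO1pos library and 22.5 CPM in the lowest ROBO1neg library. ST3GAL2 averaged 23.0 ± 1.38 CPM in ROBO1pos and 29.9 ± 1.05 CPM in ROBO1neg. ST3GAL5, the GM3 synthase, was higher in ROBO1pos, at 6.66 ± 0.853 CPM, against 4.39 ± 0.334 CPM in ROBO1neg (0.60, SE 0.11, edgeR adjusted p = 0.00013), as was ST3GAL3, at 10.5 ± 1.26 CPM, against 8.04 ± 0.457 CPM in ROBO1neg with overlapping libraries.

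ST6GAL1, which adds a terminal sialic acid to N-glycans and lies on chromosome 3 (186930526 to 187078553), had 23.2, 22.2, 25.5, 27.6 and 29.8 CPM in ROBO1pos, against 55.6, 43.4, 57.2, 57.4 and 47.7 CPM in ROBO1neg (log2 difference -1.03, SE 0.09, edgeR adjusted p = 1.7e-07). All ROBO1pos libraries were below all ROBO1neg libraries. The ratio of ST6GAL1 to ST3GAL1 per kilobase lay higher in ROBO1pos, with 9.62 to 17.2 in its libraries (median 14.4), against 1.36 to 2.25 in ROBO1neg (median 1.85). Of the ST6GALNAC genes, which sialylate the GalNAc of O-glycans or gangliosides, ST6GALNAC2 averaged 1.65 ± 0.356 CPM in ROBO1pos and 4.39 ± 0.949 CPM in ROBO1neg (-1.40, SE 0.19, edgeR adjusted p = 7.9e-06). ST6GALNAC4 and ST6GALNAC6 were lower in ROBO1pos by 1.34 and 1.32 times, and ST6GALNAC3 and ST6GALNAC5 were not called (edgeR adjusted p = 0.81 and 0.058). ST6GALNAC1, the sialyl-Tn synthase, had no count in any library.

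ST8SIA4, the polysialyltransferase that acts on NCAM1 and a few other carriers, was found almost only in ROBO1pos. It had 2.55, 3.08, 2.29, 2.30 and 2.30 CPM in ROBO1pos, against 0, 0, 0, 0.0341 and 0 CPM in ROBO1neg. The summed counts were 321 in ROBO1pos and 1 in ROBO1neg, a ratio of 319 with a 95% exact binomial interval of 56.8 to 12630. Without ROBO1neg replicate 4, which held that count, ST8SIA4 was at least 81.7-fold higher in ROBO1pos, taking 3 counts over the group as the floor. ST8SIA5 had 0.542, 0.556, 0.542, 0.404 and 0.616 CPM in ROBO1pos, against 0.212, 0.129, 0.217, 0.478 and 0.180 CPM in ROBO1neg, so that ROBO1neg replicate 4 lay inside the ROBO1pos range. ST8SIA4 and ST8SIA5 passed the filter on low counts through ROBO1pos alone and had to differ to be tested, so their values are given as a description.

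Of 6 tested fucosyltransferases, 2 were higher in ROBO1pos and 3 in ROBO1neg, beside 41.6% and 40.4% of all tested genes, and FUT2 was past 2-fold. FUT8, the enzyme of core fucose on N-glycans, had 44.8, 45.7, 46.4, 47.2 and 49.1 CPM in ROBO1pos, against 81.0, 79.9, 79.0, 77.7 and 86.6 CPM in ROBO1neg (log2 difference -0.79, SE 0.04, edgeR adjusted p = 3.7e-10). FUT4, which makes Lewis x, was higher in ROBO1pos, with 53.0, 58.9, 54.5, 52.7 and 60.9 CPM, against 35.0, 35.0, 35.5, 37.3 and 37.1 CPM in ROBO1neg (0.64, SE 0.05, edgeR adjusted p = 2.7e-08). Neither gene overlapped between groups, and per kilobase FUT4 led the family in ROBO1pos (35.1% against 21.3% in ROBO1neg) and FUT8 in ROBO1neg (26.4% in ROBO1pos against 43.4% in ROBO1neg). For FUT4, 11.3% of the exon length overlaps PIWIL4 on the same strand, and for FUT8, 12.3% overlaps FUT8-AS1 on the other strand. FUT1 and FUT2 both make the H antigen. FUT1 averaged 23.9 ± 3.34 CPM in ROBO1pos and 18.8 ± 2.71 CPM in ROBO1neg with overlapping libraries (0.34, SE 0.11, edgeR adjusted p = 0.011), while FUT2 had 0.387, 0.296, 0.659, 0.525 and 0.246 CPM in ROBO1pos, against 1.40, 1.38, 2.78, 2.76 and 1.55 CPM in ROBO1neg (-2.22, SE 0.31). FUT2 passed the filter on low counts through ROBO1neg alone and had to differ to be tested, so its values are given as a description. FUT11 was 1.32-fold lower in ROBO1pos, and FUT10 was not called (edgeR adjusted p = 0.29). FUT3, FUT5 and FUT6, near-identical Lewis enzymes whose reads may be split or discarded, had at most 6 counts each in a library.

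To place each member among its neighbours on the chromosome, its log2 difference was set beside the median of the 20 nearest tested genes on each side. These medians ran from -0.89 to 1.24 around the called members. After subtracting them, 51 of the 56 called members kept their direction, and B3GALT6, GALNT1, GALNT11, ST6GALNAC4 and ST6GALNAC6 turned. Of the 28 members at 2-fold or more, all kept their direction and 21 stayed at 2-fold or more. ST6GAL1, on chromosome 3, had a local median of -0.89 and was left with -0.14. GALNT2, on chromosome 1, was left with 0.02 of 0.69, and GALNT1, on chromosome 18, turned to -0.69 beside a local median of 1.24. ST8SIA5, also on chromosome 18, was left with 0.05 of 1.07, while B4GALT6 on the same chromosome reached -1.77. In contrast, B4GALT1 kept -3.79, ST3GAL1 -4.12, MGAT3 2.00, MGAT5 -1.46, GALNT9 2.95 and B3GNT3 1.18. The source of the local medians was not tested.

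**Figure D4:**
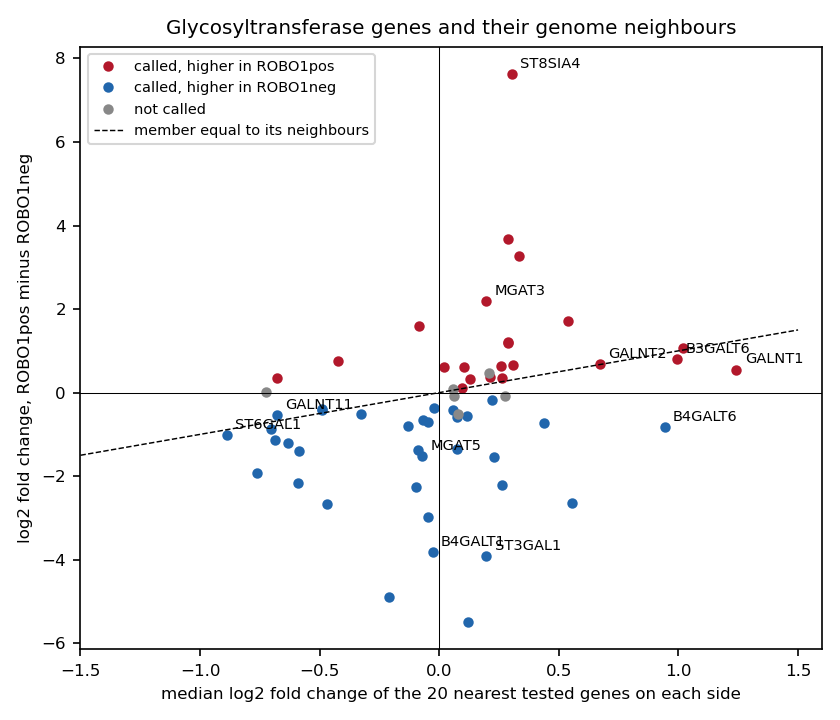
Log2 difference of ROBO1pos over ROBO1neg of each tested glycosyltransferase (vertical) against the median of the 20 nearest tested genes on each side (horizontal). ST6GAL1 and GALNT2 lie close to the line of equality, whereas B4GALT1, ST3GAL1 and MGAT3 lie far from it.

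The wider pathway was counted from 6 lists of genes that the symbol rule does not take. Of 24 genes of nucleotide sugar synthesis and transport, 7 stood higher in ROBO1pos and 14 in ROBO1neg, beside 41.6% and 40.4% of all tested genes. Their median log2 difference was -0.24, beside 0.02 over all genes. GNE, the rate-limiting enzyme of sialic acid synthesis, had 0.464, 0.667, 1.12, 0.647 and 1.07 CPM in ROBO1pos, against 23.7, 22.3, 26.4, 24.2 and 23.8 CPM in ROBO1neg (-4.92, SE 0.15, edgeR adjusted p = 1.8e-12). Every ROBO1pos library was far below every ROBO1neg library. GFPT2, which feeds the hexosamine pathway that supplies GlcNAc and GalNAc, was higher in ROBO1pos, with 43.3 ± 8.87 CPM, against 8.95 ± 1.18 CPM in ROBO1neg. Its paralog GFPT1 averaged 133 ± 3.43 CPM in ROBO1pos and 89.1 ± 8.5 CPM in ROBO1neg. PGM3, a later enzyme of that pathway, was lower in ROBO1pos, with 47.1 ± 2.45 CPM in ROBO1pos and 81.8 ± 1.80 CPM in ROBO1neg.

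Of 19 tested genes of oligosaccharyl transfer and N-glycan trimming, 8 were higher in ROBO1pos and 9 in ROBO1neg, close to the shares of 41.6% and 40.4% over all tested genes. The Golgi mannosidases MAN1A1 and MAN2A1, which prepare N-glycans for MGAT1 and MGAT2, were higher in ROBO1pos. MAN1A1 averaged 73.3 ± 2.99 CPM in ROBO1pos and 22.8 ± 3.67 CPM in ROBO1neg. MAN2A1 averaged 197 ± 7.44 CPM in ROBO1pos and 81.8 ± 5.63 CPM in ROBO1neg. Among the 9 genes higher in ROBO1neg were the oligosaccharyltransferase genes STT3B and MAGT1 and the mannosidases MAN1B1, MAN1A2 and MAN1C1. RPN1, a subunit of oligosaccharyltransferase, averaged 234 ± 11.2 CPM in ROBO1pos and 401 ± 10.2 CPM in ROBO1neg, beside a local median of -1.0 on chromosome 3. MAN1B1 averaged 47.0 ± 2.27 CPM in ROBO1pos and 83.6 ± 5.55 CPM in ROBO1neg. Of 28 tested genes of other glycan-extending enzymes, 9 were higher in ROBO1pos and 16 in ROBO1neg. UGCG, which makes the glucosylceramide at the base of most glycolipids, averaged 27.3 ± 2.24 CPM in ROBO1pos and 342 ± 64.2 CPM in ROBO1neg (log2 difference -3.64, SE 0.12, edgeR adjusted p = 3.7e-12). LFNG, which extends O-fucose on NOTCH receptors, stood the other way, at 168 ± 16.7 CPM in ROBO1pos and 11.5 ± 1.77 CPM in ROBO1neg (3.87, SE 0.10, edgeR adjusted p = 4.5e-13). These 2 genes had no overlap between groups. B3GALNT1, the globoside synthase, averaged 28.8 ± 1.96 CPM in ROBO1pos and 7.51 ± 0.947 CPM in ROBO1neg. B3GLCT, which extends O-fucose on thrombospondin repeats, averaged 15.8 ± 0.667 CPM in ROBO1pos and 56.3 ± 2.97 CPM in ROBO1neg.

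Glycan-degrading enzymes, mucins and lectins were also counted, beside 41.6% of all tested genes higher in ROBO1pos and 40.4% in ROBO1neg. Of 16 tested degrading enzymes, 2 were higher in ROBO1pos (NEU3, the plasma membrane sialidase, and MAN2B1, the lysosomal mannosidase) and 8 in ROBO1neg. NEU3 averaged 32.6 ± 0.742 CPM in ROBO1pos and 23.3 ± 1.56 CPM in ROBO1neg, and MAN2B1 85.7 ± 6.18 CPM in ROBO1pos and 64.2 ± 4.47 CPM in ROBO1neg. MAN2B1, on chromosome 19, had a local median of 0.54 and turned to -0.12 once it was subtracted. The lysosomal galactosidase GLB1 averaged 83.2 ± 3.18 CPM in ROBO1pos and 166 ± 5.00 CPM in ROBO1neg beside a local median of -0.80 on chromosome 3. Of 7 tested mucins, 3 were higher in ROBO1pos and 4 in ROBO1neg, but MUC5AC and MUC5B passed the filter on low counts through ROBO1pos alone and MUC12 and MUC16 through ROBO1neg alone, so these 4 had to differ to be tested. The membrane mucin MUC13, the most abundant of the list, was higher in ROBO1pos, with 23.0 ± 3.40 CPM, against 11.8 ± 1.78 CPM in ROBO1neg (log2 difference 0.97, edgeR adjusted p = 2.4e-06). MUC1 and MUC3A, also membrane mucins, were higher in ROBO1neg. The gel-forming MUC5AC and MUC5B averaged 0.835 ± 0.178 and 1.23 ± 0.126 CPM in ROBO1pos, against 0.0530 ± 0.0540 and 0.123 ± 0.0844 CPM in ROBO1neg. Of the other membrane mucins, MUC12 and MUC16 averaged 0.0389 ± 0.0274 and 0.281 ± 0.106 CPM in ROBO1pos, against 1.70 ± 0.703 and 6.77 ± 0.440 CPM in ROBO1neg. Of 13 tested galectins and other glycan-binding proteins, 2 were higher in ROBO1pos and 5 in ROBO1neg. LGALS1 and LGALS3, galectins that bind LacNAc on branched N-glycans, averaged 101 ± 21.1 and 58.9 ± 4.70 CPM in ROBO1pos, against 346 ± 26.4 and 209 ± 13.9 CPM in ROBO1neg. LMAN1, a cargo lectin of the early secretory pathway, averaged 224 ± 13.2 CPM in ROBO1pos and 133 ± 8.46 CPM in ROBO1neg beside a local median of 1.03 on chromosome 18. LGALS7B, a near-identical copy of LGALS7, averaged 2.74 ± 0.689 CPM in ROBO1pos and 0.195 ± 0.0668 CPM in ROBO1neg, and it passed the filter through ROBO1pos alone.

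**Figure D5:**
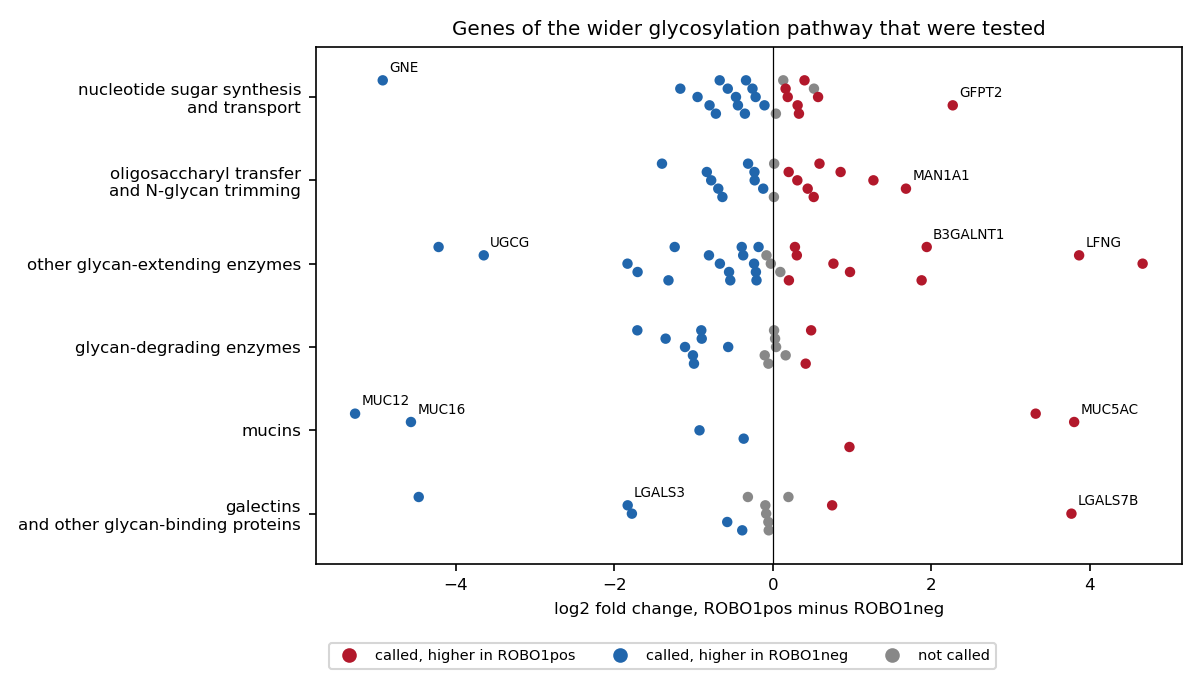
Log2 difference of ROBO1pos over ROBO1neg for the tested genes of 6 lists of the wider glycosylation pathway, with 1 point a gene and heights spread for legibility. Each list holds genes on both sides of 0, with GNE at -4.92, UGCG at -3.64 and LFNG at 3.87.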

How the data were processed

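Per the labels, flow-sorted SW480 cells gave polyadenylated RNA for stranded libraries. Each library has 1 deposited file of raw gene counts, left without normalisation by the authors. The submitters' processing notes name GRCh38 as the build and list STAR 2.6.0c, SAMtools 1.9, DESeq2 1.24.0, FastQC and bcl2fastq. The counter, the annotation and the use of strand were not given in the sources used here. Overlapping or antisense genes may share reads. Entries without a gene name entered neither library sizes nor tests. They were reads with no feature (a mean of 15.8% in ROBO1pos and 14.6% in ROBO1neg), reads with multiple alignments (24.6% in ROBO1pos and 21.2% in ROBO1neg) and ambiguous reads (0.806% to 0.881% per library).

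Counts were analysed with edgeR 4.0.16 in R 4.3.3, with limma 3.58.1 and DESeq2 1.42.0 for alternatives. Genes were filtered by filterByExpr defaults, scaled by TMM and fitted by the quasi-likelihood model on group alone, and a Benjamini-Hochberg adjusted p under 0.05 over all genes was called. The fit was tested on simulated data. Counting intervals are exact binomial. The replicates of a group were not duplicates, since their counts differed by 3.42 to 20.8 times the sampling variance per degree of freedom. Alternatives were 3 scalings, 2 filters, DESeq2, limma-voom, a replicate block, each library left out, and removal of the median of neighbouring genes. Members and lists were chosen with earlier results of these data known. The members named are the 8 with the highest and the 8 with the lowest log2 difference among called members of at least 2 CPM with no overlap, up to 2 per class and direction by adjusted p, and enzymes of textbook roles, and up to 2 per list and direction. A gene that this rule names among the glycan-degrading enzymes is not reported here. Other members given with values were chosen after their values were seen, and so were the 4 promoters. Exon lengths and overlaps are from GENCODE v29, and gene positions are from RefSeq, GRCh38.p14.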

Additional observations from a re-analysis of the deposited data

Results flagged for a closer look

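In 124 groups of 5 libraries, 2 for each of the 62 tested glycosyltransferases, 5 held a library whose gap to the nearest other library took most of the group's range (Dixon's test at 95%). Chance gives such a library in about 1 in 20 groups. GCNT4 had 0.0808 CPM in ROBO1pos replicate 4, where the 4 other ROBO1pos libraries were at 0, and 0.517 CPM in ROBO1neg replicate 2, where the nearest other ROBO1neg library had 0.955 CPM. ST8SIA4 had 0.0341 CPM, which is 1 count, in ROBO1neg replicate 4, where the others were at 0. ST8SIA5 had 0.478 CPM in the same ROBO1neg replicate 4, where the nearest other library had 0.217 CPM. ST6GALNAC2 had 1.03 CPM in ROBO1pos replicate 5, where the nearest other library had 1.70 CPM.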

How the results depend on the processing

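Of the 56 called glycosyltransferases, all kept their call under RLE scaling, DESeq2, limma-voom and the replicate block; MGAT4B lost it under upper quartile scaling and library size only, and MGAT1 with no filter beyond 1 count. Without 1 library, at most 1 call was lost, MGAT4B or MGAT1, while GCNT2 was gained without ROBO1pos replicate 2 or 4 or ROBO1neg replicate 1 or 3, ST6GALNAC5 without ROBO1pos replicate 5 or ROBO1neg replicate 3 (and under upper quartile scaling and library size only), and GALNT7 without ROBO1pos replicate 1. All 43 called members that passed a filter of 5 CPM in 5 libraries kept their call. Whether the replicate numbers pair the libraries was not settled. Same-numbered libraries correlated at 0.107, 0.062, 0.169, 0.066 and 0.154 for replicates 1 to 5. Replicates 1, 3 and 5 correlated less with any other number (at best 0.024, 0.095 and 0.090), while replicates 2 and 4 correlated better with another number. The replicate block lost no call of a member and added GCNT2 (adjusted p = 0.044), which brought the core 2 and I branching genes higher in ROBO1neg to 2; without 1 library that count ran from 1 to 2. That filter tested fewer genes and left 1137 genes at least 2-fold higher in ROBO1pos, 11 members at least 2-fold higher in ROBO1neg, 5 GALNT genes higher in ROBO1neg, 0 core 2 and I branching genes each way, 1 B3GNT gene and 2 sialyltransferases higher in ROBO1pos, 1 mucin each way, and 1 galectin or other glycan-binding gene higher in ROBO1pos. Members at 2-fold or more higher in ROBO1pos were 16 with no filter and 14 with DESeq2, since more low genes were tested; galactosyltransferases higher in ROBO1pos were then 5 with no filter, and mucins 5 with either. Degrading enzymes higher in ROBO1pos were 4 under upper quartile scaling. With the median of neighbouring genes removed, degrading enzymes and glycan-binding genes higher in ROBO1pos were 1 each, and B3GALT6 turned to -0.20. Glycan-binding genes higher in ROBO1neg ran from 5 to 8 without 1 library, 8 being without ROBO1pos replicate 5. The GCNT1 log2 fold change, not called, ran from -0.059 to 0.11 without 1 library. The causes were not tested where no filter is named. The 24 untested members were all under 1 CPM, and the part of depth in this was not tested.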

Other observations

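The 24 glycosyltransferases too low to test averaged at most 0.582 CPM in either group, and 6 of them (MGAT4D, GCNT7, B3GNT6, ST6GALNAC1, ST8SIA3 and FUT9) had no count in any library. The 4 without overlap between the groups were B3GALT2, ST6GAL2, ST8SIA1 and FUT6. B3GALT2, which makes type 1 chains, had 22, 19, 14, 15 and 5 counts in ROBO1pos, against 0, 0, 0, 1 and 0 counts in ROBO1neg, a ratio of 74.5 (95% exact binomial interval 13.0 to 2981). ST6GAL2, the relative of ST6GAL1, had 15, 8, 7, 3 and 2 counts in ROBO1pos, against 1, 0, 0, 0 and 0 counts in ROBO1neg, a ratio of 34.8 (5.84 to 1412). ST8SIA1, the GD3 synthase of gangliosides, had 5, 16, 23, 12 and 8 counts in ROBO1pos, against 1, 2, 3, 2 and 3 counts in ROBO1neg. FUT6 had 19 counts in all ROBO1pos libraries and 1 in all ROBO1neg libraries, with reads that may be shared with FUT3 and FUT5.

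Other genes of the pathway lists, picked after their values were seen, also differed. ABO, the blood group A and B transferase, averaged 0.101 ± 0.0617 CPM in ROBO1pos and 1.97 ± 0.393 CPM in ROBO1neg. LGALS9, a galectin that binds poly-LacNAc, averaged 0.109 ± 0.0488 CPM in ROBO1pos and 2.52 ± 0.644 CPM in ROBO1neg. ABO and LGALS9 passed the filter on low counts through ROBO1neg alone and had to differ to be tested, so their values are given as a description. MFNG, a relative of LFNG that also acts on NOTCH receptors, averaged 3.14 ± 0.628 CPM in ROBO1pos and 0.852 ± 0.152 CPM in ROBO1neg (log2 difference 1.88, SE 0.18, edgeR adjusted p = 3.3e-07). EOGT, which adds GlcNAc to EGF repeats of secreted and membrane proteins, averaged 8.65 ± 0.522 CPM in ROBO1pos and 28.2 ± 2.51 CPM in ROBO1neg (-1.70, SE 0.07, edgeR adjusted p = 5.7e-11).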
